A study of Homo sapiens with 8 samples.

Results

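Genes of the SWI/SNF, ISWI and CHD chromatin remodellers were examined in CEM, a human T-cell acute lymphoblastic leukaemia cell line, with and without an shRNA against ZMIZ1. The genes were taken by name: every symbol that starts with SMARC, CHD followed by a digit, and 12 further SWI/SNF subunits (ARID1A, ARID1B, ARID2, PBRM1, BRD7, BRD9, DPF1, DPF2, DPF3, PHF10, ACTL6A and ACTL6B). This gave 34 of the 20282 genes with a symbol of their own on the array, measured by 115 probe sets. The brightest probe set, by its mean signal on the 8 arrays, stood for each gene; 7 of the 34 genes had 1 probe set and 27 had several. A scrambled control shRNA had been given to 4 of the 8 cultures and the ZMIZ1 shRNA to the other 4. Replicates are described as biological and unpaired. All cultures were of the same line, and the labels name neither another shRNA nor a rescue, so loss of ZMIZ1 and action of the shRNA on other transcripts cannot be told apart. The arrays were Affymetrix HG-U133 Plus 2.0, and the values are RMA log2 signals, in which a step of 1 is a 2-fold change; 4 arrays per group limit the precision.

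Chromatin remodellers use the energy of ATP to slide, eject or exchange nucleosomes and so open or close DNA to transcription factors. SWI/SNF complexes are built around SMARCA4 (BRG1) or SMARCA2 (BRM), ISWI complexes around SMARCA5 (SNF2H) or SMARCA1 (SNF2L), and CHD3, CHD4 and CHD5 are the ATPases of the NuRD deacetylase complex. Several SWI/SNF subunits, SMARCA4 and SMARCB1 among them, are tumour suppressors, and SMARCA4 and CHD4 are needed for thymocyte development in mice. ZMIZ1 is a PIAS-like transcriptional coactivator; its paralogue ZMIZ2 has been reported to bind SWI/SNF subunits, and the fly homologue tonalli interacts genetically with the Brahma SWI/SNF complex in Drosophila.

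ZMIZ1 itself fell by 1.21 ± 0.08 on the log2 scale (SE; limma, adjusted p = 1.4e-05), to 43.2% of its control level, with no overlap between the groups; the paralogue ZMIZ2 did not pass (-0.13 ± 0.11, adjusted p = 0.472). The median log2 signal was 5.177 to 5.205 on control and 5.152 to 5.175 on knockdown arrays, without overlap (exact permutation p = 0.0286). Mean signal of the 18S ribosomal RNA probes lay between 12.70 and 13.37 on the control arrays, and of 12.12, 11.67, 9.85 and 10.21 on knockdown arrays 1 to 4 (exact permutation test, p = 0.0286, the lowest value possible with 70 assignments). The 3' over 5' signal of GAPDH and of ACTB, a measure of RNA integrity, overlapped between the groups (exact permutation p = 0.314 and 0.286). Of 7 T cell markers, CD3E rose and 6 did not pass, with control means from 5.70 for CD5 to 13.41 for CD3D. Of 13 markers of B, myeloid, erythroid, epithelial and fibroblast cells, HBB rose by 0.44, KRT8 fell by 0.22 and 11 did not pass. In controls these 13 ranged from 3.99 to 8.42, with MS4A1 and COL1A2 among the lowest and EPCAM the highest. The part of the 18S signal and of these markers in the results below was not tested. Values with the 18S signal as a covariate are given. As that signal did not overlap between the groups, such a fit cannot separate it from the knockdown.

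Of the 34 remodeller genes, 5 rose in the knockdown, 4 fell and 25 did not pass (limma, adjusted p under 0.05 over all genes). In bulk RNA, fewer cells with a transcript and less of it per cell cannot be told apart. The risers were SMARCB1, SMARCD1, SMARCD2, CHD4 and CHD6, and the genes that fell were SMARCA5, CHD1, SMARCC2 and DPF3. The called share, 26.5%, lay near the 22.1% of all 20282 genes that were called. With genes of a mean signal under 5 left out, 9 of the 34 were called, beside 32.4% of 13931 genes. The share of risers was 14.7% among the remodellers and 14.7% among all genes; the share that fell was 11.8% against 7.38%. The differences ran from -0.50 to 0.33, with 17 genes higher and 17 lower, a median of 0.0025 and a median size of 0.17. Over all genes the median difference was 0.03 and the median size 0.13. On these brightest probe sets none of the 34 differed by more than 0.50 on the log2 scale, a 1.41-fold change; some dimmer probe sets, described further on, differed by more. The groups did not overlap in 10 of the 34 genes (29.4%), against 25.2% of all genes; these were the called genes other than SMARCC2, with BRD7 and PHF10 in addition. By the authors' deposited table, CHD1 alone among the 34 (2.94%) met their rule of a p-value under 0.01 with over a 1.3-fold change, which 9.83% of all genes met.

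**Figure D1:**
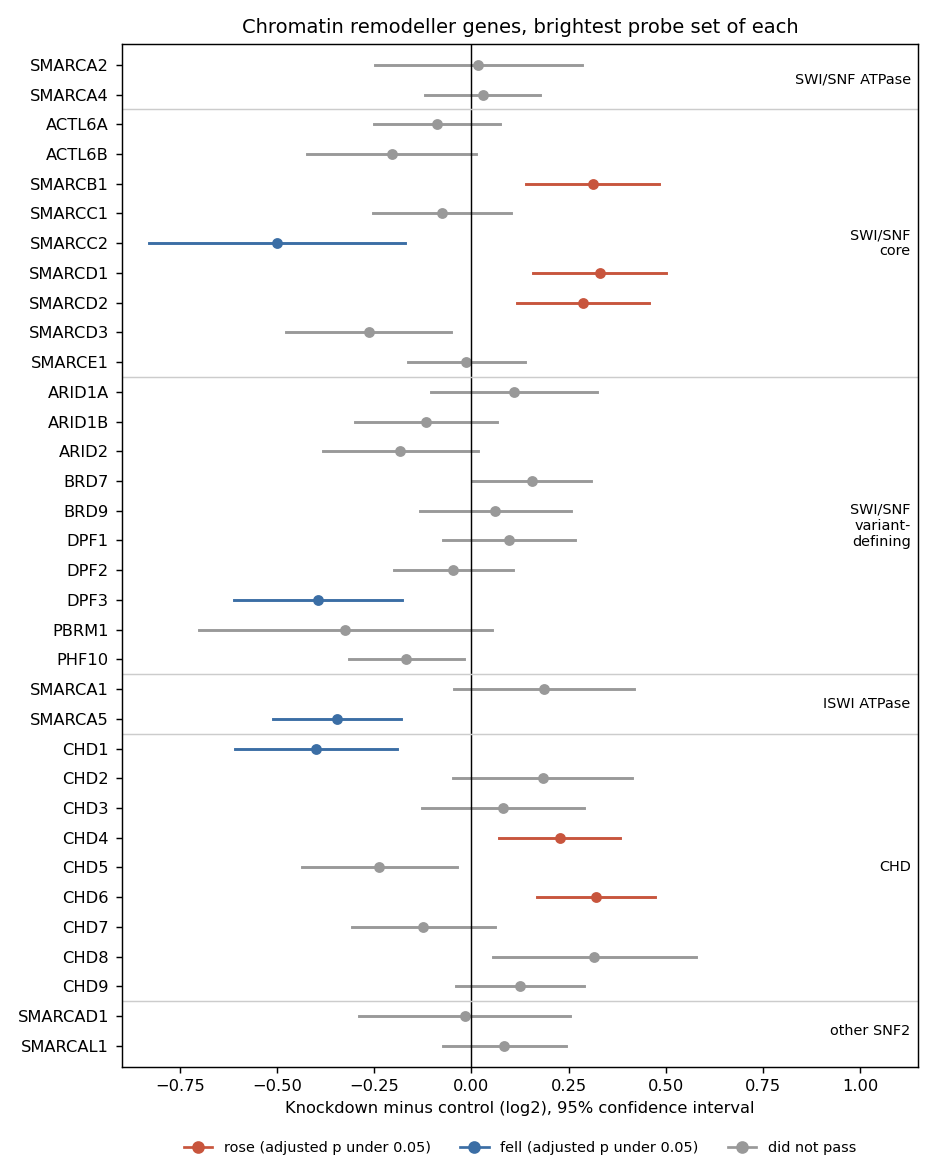
Knockdown minus control difference (log2, x axis) of the brightest probe set of each of the 34 remodeller genes, with its 95% confidence interval, in blocks by role; red genes rose, blue genes fell and grey genes did not pass. The points lie between -0.50 and 0.33, and the called genes fall on either side of 0.

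Neither ATPase subunit of SWI/SNF passed. SMARCA4, the main ATPase of the complex in proliferating cells, had log2 values of 11.88, 11.79, 11.76 and 11.73 on the control arrays and 11.83, 11.85, 11.81 and 11.78 on the knockdown arrays. The groups overlapped, and the difference of 0.03 ± 0.07 (SE; adjusted p = 0.810) had a 95% confidence interval from -0.12 to 0.18. None of the 10 probe sets of SMARCA4 passed; their differences ran from -0.24 to 0.31, with 6 higher and 4 lower. SMARCA2, the alternative ATPase, measured 8.90, 8.99, 9.27 and 9.53 in controls and 9.09, 9.19, 9.24 and 9.25 in knockdown cultures. The knockdown values lay inside the range of the controls, and the difference was 0.02 ± 0.12 (adjusted p = 0.940; confidence interval -0.25 to 0.28). The lowest and highest control values of SMARCA2 were from replicates 1 and 4, the control arrays with the highest and lowest 18S signal. Of its 7 probe sets, 4 were higher, by at most 0.09, and 3 were lower. A dim one fell by 0.39, with control values from 3.40 to 3.77 and knockdown values from 3.11 to 3.46. The other lower ones did not pass in limma, at -0.90 with overlapping groups and -0.30 without overlap (adjusted p = 0.0975 and 0.0825 over all probe sets).

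Among the 9 subunits grouped here as the SWI/SNF core, SMARCB1, SMARCD1 and SMARCD2 rose, SMARCC2 fell and 5 did not pass. The called share was 44.4% (33.3% rose and 11.1% fell), beside 22.1% of all genes (14.7% and 7.38%). Of genes with a mean signal of at least 5, 32.4% were called. SMARCB1 (SNF5), which binds the nucleosome acidic patch and is lost in rhabdoid tumours, measured 8.13, 8.34, 8.24 and 8.33 in controls and 8.57, 8.52, 8.70 and 8.50 in knockdown cultures. Every knockdown value lay above every control value, a rise of 0.31 ± 0.08 (SE; 1.24-fold, adjusted p = 0.0144). SMARCD1 (BAF60A), a scaffold subunit that contacts transcription factors, measured 8.58, 8.42, 8.34 and 8.45 in controls. In the knockdown it measured 8.75, 8.72, 8.91 and 8.73, again with no overlap, and rose by 0.33 ± 0.08 (1.26-fold, adjusted p = 0.0109). Its paralogue SMARCD2 (BAF60B), which is needed for granulocyte formation, measured 9.46, 9.43, 9.35 and 9.50 in controls and 9.65, 9.62, 9.88 and 9.74 in knockdown cultures. These groups were also separate, and SMARCD2 rose by 0.29 ± 0.08 (1.22-fold, adjusted p = 0.0203). The dim SMARCD3 (BAF60C), the muscle paralogue, had a difference of -0.26 ± 0.10 that did not pass (adjusted p = 0.0742).

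The calls of SMARCB1 and SMARCD1 held in all 8 fits that left out 1 array. That of SMARCD2 ended without control replicate 3 (adjusted p = 0.0688), knockdown replicate 3 (0.0586) or knockdown replicate 4 (0.0564). The dimmer second probe sets of SMARCB1 (-0.15) and SMARCD1 (0.04) did not pass. Both calls ended in limma when the probe sets of each gene were averaged. SMARCB1 was then at 0.079 (adjusted p = 0.383) and SMARCD1 at 0.19 (adjusted p = 0.116).

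SMARCC1 (BAF155) and SMARCC2 (BAF170), the scaffold pair that nucleates the core, gave results that depended on the probe set. The brightest SMARCC1 probe set measured 11.50, 11.33, 11.39 and 11.47 in controls and 11.21, 11.27, 11.46 and 11.45 in knockdown cultures, an overlap with a difference of -0.07 ± 0.08 (adjusted p = 0.569). The 3 dimmer SMARCC1 probe sets each fell without overlap, by 0.74 ± 0.19, 0.38 ± 0.09 and 0.57 ± 0.11 (SE; adjusted p = 0.0294, 0.0160 and 0.00764 over all probe sets). The probe set that fell by 0.38 measured between 10.15 and 10.44 in controls and at most 9.998 in knockdown cultures.

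SMARCC2 measured 8.24, 8.69, 8.72 and 9.09 in controls and 8.29, 8.36, 8.05 and 8.04 in knockdown cultures on its brightest probe set. It fell by 0.50 ± 0.15 (1.41-fold lower, adjusted p = 0.0338), although control replicate 1 lay among the knockdown values. Like those of SMARCA2, its control values were lowest on replicate 1 and highest on replicate 4; the part of the 18S signal in this was not tested. Its next probe set went the other way, from 7.78 to 8.02 in controls and from 7.92 to 8.55 in knockdown cultures (0.35, not passed), and without _s_at and _x_at probe sets, which can match several transcripts, that probe set stood for the gene. The SMARCC2 call ended when its probe sets were averaged (-0.03, adjusted p = 0.868). It also ended without control replicate 2, 3 or 4 or knockdown replicate 3 or 4 (adjusted p from 0.0677 to 0.0951). The other core subunits, SMARCE1 (BAF57, a DNA-binding HMG protein; -0.01), ACTL6A (BAF53A, an actin-related protein; -0.09) and its neuronal paralogue ACTL6B (-0.21), did not pass.

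**Figure D2:**
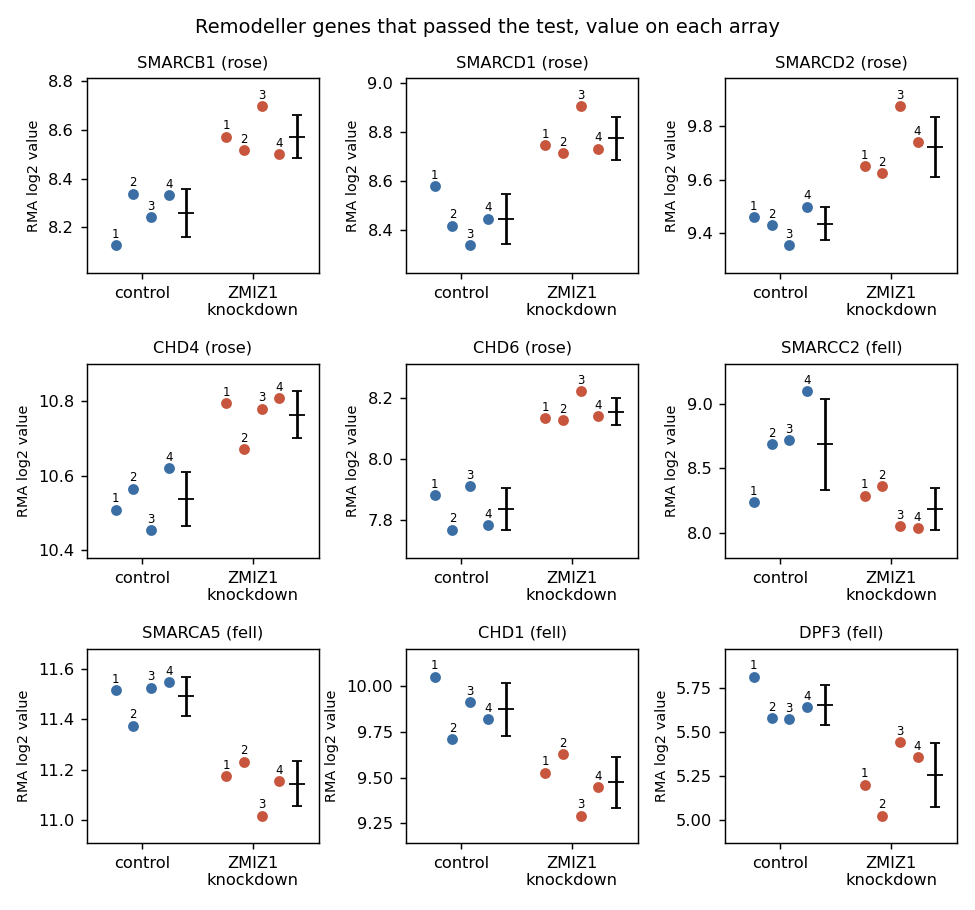
RMA log2 value on each array for the 9 remodeller genes that passed the test, with the replicate number beside each point; bars give the mean and SD of the 4 arrays of a group, and each panel has its own axis. The groups are separate in 8 panels and overlap in that of SMARCC2, where control replicate 1 lies at 8.24.

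Among the subunits that define the SWI/SNF variants, DPF3 passed. ARID1A and ARID1B mark the canonical BAF form, ARID2, PBRM1, BRD7 and PHF10 the PBAF form, and BRD9 the non-canonical form. Of these and the DPF genes, 10 in all, 0 rose, DPF3 fell and 9 did not pass. The called share was 10%, beside 22.1% of all genes and 32.4% of those with a mean signal of at least 5. In limma 3 of the 10 had an unadjusted p under 0.05. The groups did not overlap in 3 of the 10 (30%), near the 25.2% of all genes. ARID1A, the subunit most often mutated in cancer, measured 11.32, 11.54, 11.53 and 11.10 in controls and 11.41, 11.51, 11.49 and 11.53 in knockdown cultures (0.11 ± 0.10, adjusted p = 0.478). DPF3 (BAF45C), a reader of histone acetylation known from heart and muscle, measured 5.81, 5.58, 5.57 and 5.64 in controls and 5.20, 5.03, 5.44 and 5.36 in knockdown cultures. These signals lay close to the array median, the groups did not overlap, and DPF3 fell by 0.39 ± 0.10 (SE; 1.31-fold lower, adjusted p = 0.0141). Its 3 other probe sets had differences of 0.12, 0.15 and 0.19 and did not pass, and the mean of its probe sets gave 0.01.

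BRD7, a bromodomain subunit of PBAF, measured 10.42, 10.29, 10.36 and 10.43 in controls and 10.45, 10.52, 10.60 and 10.55 in knockdown cultures. PHF10 (BAF45A), a PBAF subunit with PHD fingers, measured 10.84, 10.82, 10.91 and 10.78 in controls and 10.69, 10.69, 10.72 and 10.60 in knockdown cultures. Neither pair of groups overlapped, but the differences of 0.16 and -0.17 did not pass (adjusted p = 0.140 and 0.103). The dimmer BRD7 probe sets had overlapping groups and differences of -0.38 and 0.38. Neither passed in limma (adjusted p = 0.0991 and 0.0928 over all probe sets). PBRM1, the polybromo subunit that reads acetylated histones, measured between 10.24 and 10.48 in controls and 10.43, 10.35, 9.49 and 9.87 on knockdown arrays 1 to 4. Knockdown arrays 1 and 2 thus lay within the control range and arrays 3 and 4 below it (-0.32 ± 0.17, adjusted p = 0.213). With the 18S covariate the difference was 0.41, and with knockdown arrays 1 and 2 alone 0.032, neither passed. The next brightest PBRM1 probe set lay between 9.49 and 9.75 on all 8 arrays. The remaining members of these variants, ARID1B (-0.12), ARID2 (-0.18), BRD9 (0.06), DPF1 (0.10) and DPF2 (-0.05), had overlapping groups.

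In the ISWI pair SMARCA5 fell. SMARCA5, the ATPase that spaces nucleosomes behind replication forks and is needed for blood formation in mice, measured 11.52, 11.38, 11.53 and 11.55 in controls and 11.18, 11.23, 11.02 and 11.16 in knockdown cultures. The groups did not overlap, and the fall was 0.35 ± 0.08 (SE; 1.27-fold lower, adjusted p = 0.00701), a call that held with each array left out. Its other 2 probe sets leaned the same way, with differences of -0.24 and -0.21 that did not pass, and with the mean of the 3 the call ended (-0.27, adjusted p = 0.0672). SMARCA1, the ATPase of the NURF complex, measured 8.61, 8.89, 9.05 and 9.14 in controls and 9.12, 9.17, 9.09 and 9.06 in knockdown cultures. The groups overlapped and the difference of 0.19 ± 0.11 did not pass (adjusted p = 0.245). Whether the changes of SMARCA5 and SMARCA1 differ was not tested.

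Of the 9 CHD genes, CHD4 and CHD6 rose, CHD1 fell and 6 did not pass. The called share was 33.3%, beside 22.1% of all genes and 32.4% of those with a mean signal of at least 5. CHD1, which binds methylated lysine 4 of histone H3 and keeps chromatin open at active genes, measured 10.05, 9.71, 9.91 and 9.82 in controls and 9.53, 9.63, 9.29 and 9.45 in knockdown cultures. The groups did not overlap, and CHD1 fell by 0.40 ± 0.10 (SE; 1.32-fold lower, adjusted p = 0.0109). Its other probe set had a difference of -0.27 that did not pass over all probe sets, and the mean of both was called. The equal-variance test, the kind behind the authors' deposited p-values, ended the calls of CHD1 (adjusted p = 0.0516), DPF3 (0.0623) and SMARCC2 (0.144).

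CHD4 (Mi-2 beta), the main NuRD ATPase in lymphoid cells, measured 10.51, 10.57, 10.45 and 10.62 in controls and 10.80, 10.67, 10.78 and 10.81 in knockdown cultures. The groups were separate and the rise was 0.23 ± 0.07 (1.17-fold, adjusted p = 0.0395). It passed in 2 of the 8 fits with 1 array left out, ending without control replicate 1, 2 or 3 or knockdown replicate 1, 3 or 4 (adjusted p from 0.0668 to 0.122). The other 2 CHD4 probe sets were lower by 0.73 and 0.63, not passed, and measured 9.09 and 9.36, and 9.31 and 9.11, on knockdown arrays 3 and 4, against 10.08 to 10.58 in controls. Averaged over its 3 probe sets, CHD4 was lower by a log2 difference of -0.38, not passed (adjusted p = 0.0810).

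CHD6, a large member of the third CHD subfamily, measured 7.88, 7.77, 7.91 and 7.78 in controls and 8.13, 8.13, 8.22 and 8.14 in knockdown cultures. This was a rise of 0.32 ± 0.07 without overlap (adjusted p = 0.00655), and it held with each array left out. The 3 dimmer CHD6 probe sets had differences of 0.02, -0.09 and -0.36 and did not pass, and the mean of the 4 was -0.03. CHD8, which binds beta-catenin and CTCF, measured 7.46, 7.22, 7.07 and 7.23 in controls and 7.25, 7.49, 7.71 and 7.78 in knockdown cultures. Its difference of 0.32 ± 0.12 was near that of CHD6 in size, but the groups overlapped and it did not pass (adjusted p = 0.0812); it passed without control replicate 1 (0.0452) or knockdown replicate 1 (0.0175).

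CHD2, a relative of CHD1, measured 8.17, 8.29, 8.50 and 8.65 in controls and 8.44, 8.59, 8.67 and 8.65 in knockdown cultures (0.18 ± 0.11, adjusted p = 0.249). CHD3, the second NuRD ATPase, measured 7.87, 8.04, 7.89 and 7.996 in controls and 7.84, 7.92, 8.25 and 8.11 in knockdown cultures (0.08 ± 0.10, adjusted p = 0.605). Both overlapped between groups. The dimmer CHD3 probe set measured 7.16, 7.25, 6.62 and 6.76 in controls and 7.11, 7.28, 7.63 and 7.66 in knockdown cultures, a larger difference of 0.47 that did not pass over all probe sets (adjusted p = 0.0864) or where it stood for the gene, without _s_at and _x_at probe sets (0.0536). CHD5, the NuRD ATPase of neurons (-0.24), CHD7, the gene of CHARGE syndrome (-0.12), and CHD9 (0.13) did not pass on their brightest probe sets. Of the 2 members outside the SWI/SNF, ISWI and CHD complexes, SMARCAD1, which acts in heterochromatin and DNA end resection, had a difference of -0.02, and SMARCAL1, an annealing helicase of stalled forks, one of 0.08; neither passed.

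The promoters of SMARCB1, SMARCD1, SMARCA5, CHD1 and DPF3, 5 of the 6 remodeller genes whose calls held with each array left out (CHD6 is the other), are shown because these genes moved in opposite directions. The windows run 5′ to 3′ from 250 bases before to 50 after the gene start, from RefSeq on GRCh38.p14, in lower case. Capitals mark matches, on either strand, to 4 motifs: the E-box CACGTG bound by MYC, TGGGAA bound by RBPJ, the DNA-binding partner of NOTCH, the ETS motif CCGGAAG and the CCAAT box CCAAT.
SMARCB1, chr22:23786716-23787015, plus strand: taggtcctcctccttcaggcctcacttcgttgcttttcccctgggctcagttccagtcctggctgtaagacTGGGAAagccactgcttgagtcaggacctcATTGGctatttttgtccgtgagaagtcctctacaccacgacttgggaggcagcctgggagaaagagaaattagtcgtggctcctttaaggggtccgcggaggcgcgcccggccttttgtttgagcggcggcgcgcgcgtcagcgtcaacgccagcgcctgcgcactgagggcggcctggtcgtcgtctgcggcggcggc
SMARCD1, chr12:50085092-50085391, plus strand: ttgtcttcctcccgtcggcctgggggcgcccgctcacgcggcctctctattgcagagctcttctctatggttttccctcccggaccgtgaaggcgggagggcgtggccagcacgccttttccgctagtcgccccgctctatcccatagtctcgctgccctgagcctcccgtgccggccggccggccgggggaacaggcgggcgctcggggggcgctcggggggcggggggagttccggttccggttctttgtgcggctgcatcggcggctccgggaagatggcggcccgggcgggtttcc
SMARCA5, chr4:143513452-143513751, plus strand: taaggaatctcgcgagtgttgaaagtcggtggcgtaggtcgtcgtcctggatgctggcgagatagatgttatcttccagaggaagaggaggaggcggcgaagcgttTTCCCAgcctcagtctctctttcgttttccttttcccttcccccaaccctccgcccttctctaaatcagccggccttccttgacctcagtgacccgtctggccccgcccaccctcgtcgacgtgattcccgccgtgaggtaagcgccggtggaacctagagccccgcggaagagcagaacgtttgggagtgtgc
CHD1, chr5:98928958-98929257, minus strand: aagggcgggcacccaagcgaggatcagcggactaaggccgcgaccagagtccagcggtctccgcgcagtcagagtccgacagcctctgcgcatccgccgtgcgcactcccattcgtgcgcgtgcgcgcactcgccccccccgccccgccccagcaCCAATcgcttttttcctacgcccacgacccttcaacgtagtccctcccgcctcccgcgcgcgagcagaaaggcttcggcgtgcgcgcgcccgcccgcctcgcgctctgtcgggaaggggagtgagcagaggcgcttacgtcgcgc
DPF3, chr14:72894052-72894351, minus strand: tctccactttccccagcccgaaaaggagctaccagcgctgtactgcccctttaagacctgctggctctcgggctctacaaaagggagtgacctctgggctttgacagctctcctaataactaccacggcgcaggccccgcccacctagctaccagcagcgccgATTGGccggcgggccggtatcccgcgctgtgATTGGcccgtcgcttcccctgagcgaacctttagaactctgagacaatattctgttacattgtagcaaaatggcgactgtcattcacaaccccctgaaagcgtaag
The windows of SMARCB1 and SMARCD1 belong to genes that rose, and those of SMARCA5, CHD1 and DPF3 to genes that fell. A window was found for 27 of the 34 remodeller genes. Among these, 9 held TGGGAA (33.3%, against 24.3% of 27305 promoter windows in the table), 2 held CACGTG (7.41% against 7.43%), 2 held CCGGAAG (7.41% against 10.7%) and 10 held CCAAT (37% against 35.7%). TGGGAA was matched in SMARCB1, which rose, and in SMARCA5, which fell; SMARCD1 had no match to any of the 4. The remodeller windows had a median GC content of 66.7% and a median of 28 CpG dinucleotides, against 58.3% and 14 over all windows. A match describes the letters only.

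Over all 115 probe sets of the remodellers, 7 rose, 9 fell and 99 did not pass. The called share was 13.9%, as it was over all 54613 probe sets (8.38% rose and 5.52% fell). No gene had calls in both directions, which 1.67% of all genes with several probe sets had. Differences of both signs, called or not, were found in 15 of the 27 genes with several probe sets. A dimmer probe set was called in 6 genes whose brightest was not, with 9 such probe sets in all. Besides the 3 of SMARCC1 and that of SMARCA2, these were 1 of ARID1B (-0.49), 1 of CHD7 (-0.56), 2 of CHD9 (0.37 and 0.55) and 1 of SMARCE1 (0.52).

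In 9 of the 115 probe sets (7.83%, against 2.43% of all) the mean of knockdown arrays 3 and 4, those with the lowest 18S signal, was lower than that of arrays 1 and 2 by more than 0.5. They belong to ARID2, BRD7, CHD4 (2 probe sets), CHD9, PBRM1 (2), SMARCA2 and SMARCC1, and only that of PBRM1 named above was the brightest of its gene. A probe set of SMARCC2 was higher by more than 0.5 (0.870%, against 0.511% of all).

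**Figure D3:**
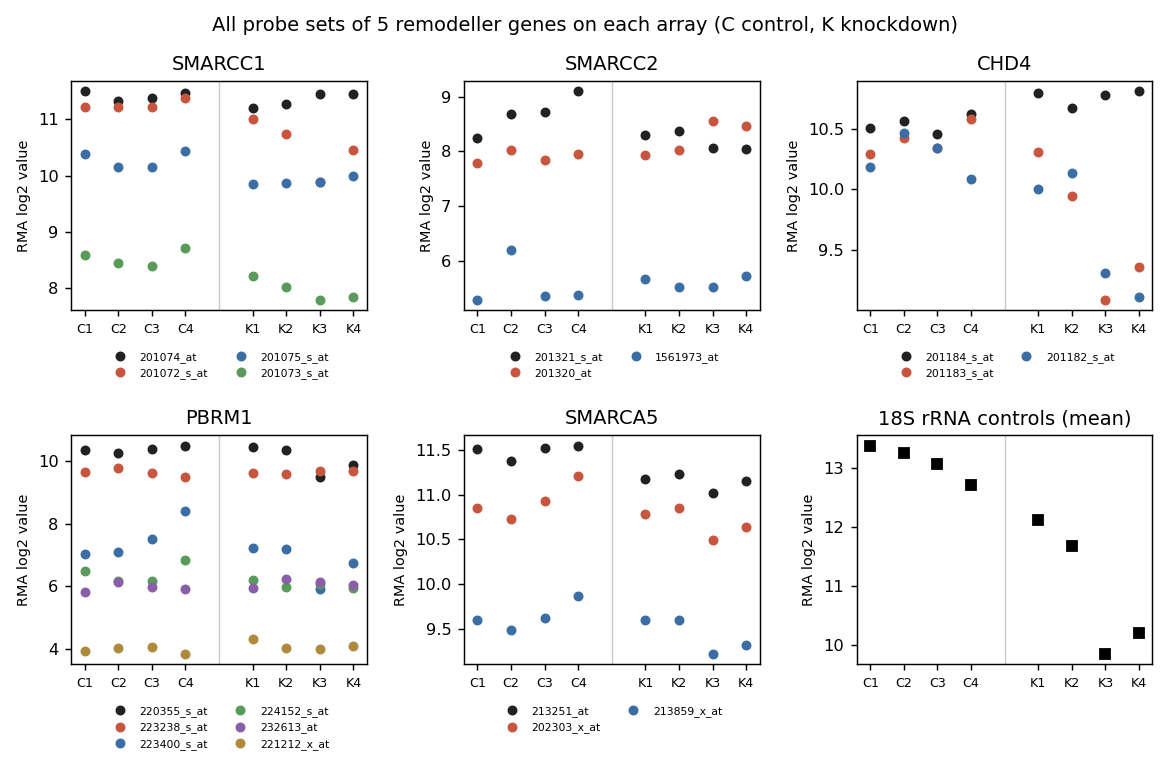
RMA log2 value (y axis) of every probe set of SMARCC1, SMARCC2, CHD4, PBRM1 and SMARCA5 on the 4 control arrays (C1 to C4) and the 4 knockdown arrays (K1 to K4), 1 colour per probe set, beside the mean of the 18S control probe sets. In CHD4 and PBRM1 some probe sets are low on K3 and K4, where the 18S signal is 9.85 and 10.21, while others of the same gene are not.

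With the 18S signal as a covariate, 0 of the 34 genes passed in limma (3 had an unadjusted p under 0.05), where 1.21% of all genes passed. The direction of all 9 called genes was kept. The differences were 0.22 for SMARCB1, 0.25 for SMARCD1, 0.09 for SMARCD2, 0.17 for CHD4, 0.27 for CHD6, -0.24 for SMARCA5, -0.16 for CHD1, -0.38 for SMARCC2 and -0.65 for DPF3 (adjusted p from 0.0767 to 0.771). The standard error of SMARCB1 grew from 0.0785 to 0.139 in that fit. The 18S signal was lower on every knockdown array than on every control array, so the fit cannot separate it from the knockdown. With knockdown arrays 1 and 2 alone against the 4 controls, an alternative chosen after seeing the data, DPF3 passed (-0.54, adjusted p = 0.0149) and the other 8 did not, each in the same direction; 9.31% of all genes passed there. Differences there were 0.28 for SMARCB1, 0.29 for SMARCD1, 0.29 for CHD6, -0.29 for SMARCA5 and -0.30 for CHD1, with adjusted p from 0.0664 to 0.124. They were 0.20 for SMARCD2, 0.20 for CHD4 and -0.36 for SMARCC2, with adjusted p of 0.179, 0.216 and 0.275.

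A further list, of genes not among the 34, held 63 genes on the array. They were 10 SWI/SNF, 10 ISWI and 12 NuRD partners, 20 INO80 and SRCAP genes and 11 other SNF2 helicases. For short, all are called partner genes here, whether or not they share a complex with one of the 34. Of the 63, 18 rose, 7 fell and 38 did not pass, a called share of 39.7% beside the 22.1% of all genes. The median difference was 0.06. With genes of a mean signal under 5 left out, 26 of the 63 were called, beside 32.4% of 13931 genes. The calls of 18 of the 25 held with each array left out. With the 18S covariate 1 of the 63 passed, CHRAC1 (-0.94, adjusted p = 0.0287), and with knockdown arrays 1 and 2 alone 10 of the 63 passed.

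Of 10 SWI/SNF partners, 3 rose and 2 fell. The called share was 50%, beside 22.1% of all genes and 32.4% of those with a mean signal of at least 5. The risers were the 3 BCL7 genes, small subunits that attach to the ATPase module. BCL7A measured between 8.72 and 8.87 in controls and between 9.14 and 9.35 in knockdown cultures, a rise of 0.45 ± 0.07 (SE; adjusted p = 0.00150); averaged over its probe sets it had the other sign (-0.26, not passed). BCL7C rose by 0.47 ± 0.12 and BCL7B by 0.39 ± 0.12; the BCL7B call held in 3 of the 8 fits with 1 array left out, and with the 18S covariate its difference was -0.058. BICRAL (GLTSCR1L), which belongs with BRD9 to the non-canonical complex, fell by 0.60 ± 0.11 (adjusted p = 0.00204), from 8.37 to 8.80 in controls to 7.85 to 8.10 in knockdown cultures. BCL11A, a zinc finger subunit of lymphoid cells, fell by 0.39 ± 0.09, and its T cell paralogue BCL11B had a difference of -0.12 that did not pass. SS18, the partner fused in synovial sarcoma, had a difference of -0.63 ± 0.22 (adjusted p = 0.0602).

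Of 10 ISWI partners, BAZ2B rose and RSF1 and CHRAC1 fell. The called share was 30%, beside 22.1% of all genes and 32.4% of those with a mean signal of at least 5. CHRAC1, a histone-fold subunit of the CHRAC complex, measured 8.88, 8.64, 8.51 and 8.64 in controls and 7.78, 7.82, 8.02 and 7.996 in knockdown cultures, a fall of 0.76 ± 0.09 (SE; adjusted p = 0.000341). RSF1, the partner of SMARCA5 in the remodelling and spacing factor, measured between 10.55 and 10.70 in controls and 10.24, 10.06, 8.86 and 9.04 on knockdown arrays 1 to 4. It fell by 1.09 ± 0.26 (adjusted p = 0.0107), with its lowest values on the arrays with the lowest 18S signal. With the 18S covariate the sign turned (0.18, adjusted p = 0.678), and with knockdown arrays 1 and 2 alone RSF1 was lower by less (-0.49, adjusted p = 0.0149). BAZ2B, a bromodomain partner of ISWI, rose by 0.57 ± 0.10 (adjusted p = 0.00233), and without _s_at and _x_at probe sets another probe set stood for it (-0.082, not passed).

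Among 12 NuRD partners, MBD3, MTA2 and HDAC1 rose and GATAD2B fell. The called share was 33.3%, beside 22.1% of all genes and 32.4% of those with a mean signal of at least 5. MBD3, the methyl-CpG-binding domain protein of NuRD, measured 9.89, 9.76, 9.47 and 9.36 in controls and 10.21, 10.27, 10.63 and 10.56 in knockdown cultures, a rise of 0.80 ± 0.13 (SE; adjusted p = 0.00149). MTA2 rose by 0.41 ± 0.11 with overlapping groups (5.69 to 6.22 and 6.20 to 6.46), and GATAD2B fell by 0.33 ± 0.09. The deacetylase HDAC1 rose by 0.27 ± 0.07 (adjusted p = 0.0122), while HDAC2 had a difference of -0.23 (adjusted p = 0.0602).

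The INO80 and SRCAP group, remodellers that exchange histone H2A.Z, had 9 of 20 genes that rose and 1 that fell (45% and 5%, beside 14.7% and 7.38% of all genes). Among the 13931 genes with a mean signal of at least 5, 3035 rose and 1478 fell. With the 18S covariate 0 of the 20 passed in limma (1 had an unadjusted p under 0.05), and with knockdown arrays 1 and 2 alone 3 passed. ZNHIT1, a subunit of SRCAP, rose by 0.61 ± 0.11 (SE; adjusted p = 0.00243), MCRS1 of INO80 by 0.57 ± 0.12 and INO80C by 0.52 ± 0.12. TFPT, DMAP1, VPS72, INO80E, INO80D and SRCAP rose by 0.31 to 0.50; the groups of VPS72, INO80E and SRCAP overlapped, and of the 8 fits with 1 array left out their calls held in 6, 3 and 2. INO80D was at -0.043 when averaged over its probe sets. RUVBL1, an AAA ATPase of both complexes, fell by 0.32 ± 0.07 (adjusted p = 0.00519), while its partner RUVBL2 did not pass (adjusted p = 0.975). The INO80 ATPase itself had a difference of 0.05 (adjusted p = 0.745). Of 11 other SNF2-family genes 27.3% were called, beside 22.1% of all genes and 32.4% of those with a mean signal of at least 5. ATRX, the histone H3.3 depositing helicase, rose by 0.49 ± 0.10 (-0.34 and not passed when averaged over its probe sets) and ERCC6L by 0.37 ± 0.07. TTF2 fell by 0.27 ± 0.07 and 8 did not pass.

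**Figure D4:**
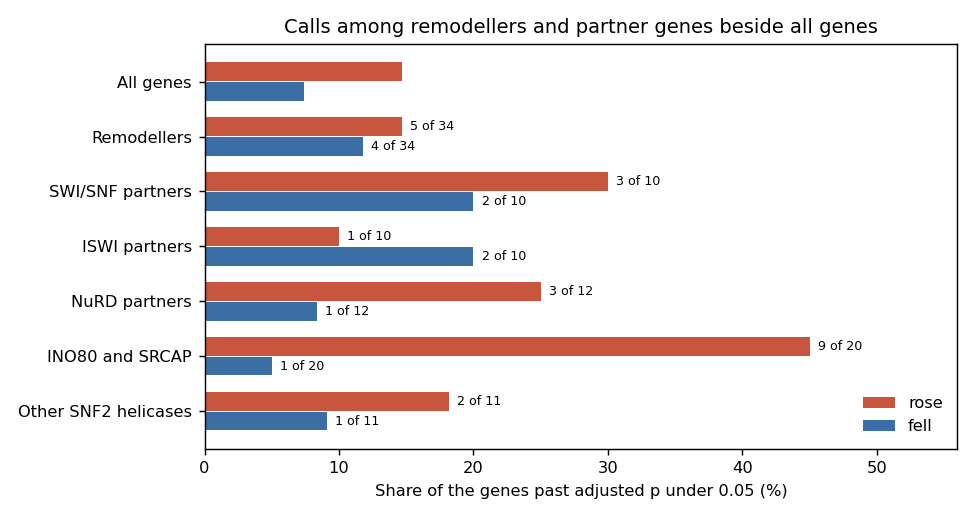
Share of genes that rose (red) or fell (blue) past adjusted p under 0.05 (x axis, %) among all genes, the 34 remodellers and each group of partner genes, with counts beside the bars of the lists. The remodellers lie near all genes with 14.7% risers, and the INO80 and SRCAP group has 45%.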

How the data were processed

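Total RNA (250 ng per culture) was labelled by in vitro transcription and hybridized, per the labels' protocols. The authors deposited log2 values of 54675 probe sets made with RMA, per the submitters' processing notes and the file headers; no version of RMA is given in the sources read. A workbook repeats these log2 values to within 5.0e-09 and adds the authors' deposited p-value of a 2-sample test and the deposited ratio of knockdown over control. The 62 control probe sets were left out, leaving 54613. Of these, 41479 carry 1 symbol, and 40270 of them were updated through the gene ID in the RefSeq table (GRCh38.p14), which gave 20282 genes, each represented by its brightest probe set. No probe set with several symbols held a remodeller symbol.

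Knockdown minus control differences were tested two-sided by lmFit and eBayes of limma 3.58.1 (R 4.3.3), with Benjamini-Hochberg adjustment over all 20282 genes or, where stated, over all probe sets. The threshold was adjusted p under 0.05. Errors of differences are standard errors, and intervals are at 95%. The fit was tested on simulated data with independent noise for each probe set. These held no effect shared by the probe sets of an array, so such effects were not covered. Precision rests on the 4 arrays per group.

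The remodeller genes and the partner and marker lists were chosen with earlier results of these data known. Named with values were all called remodellers, SMARCA1, SMARCA2, SMARCA4, SMARCA5, CHD1, CHD2, CHD3, CHD4 and CHD8, and up to 3 partners of each complex with the largest differences among those called; other remodellers and partners were named after their values were seen. Other settings tried were a replicate block, the 18S covariate, a mean-variance trend, array weights, an equal-variance test, median centring, the mean of a gene's probe sets, removal of _s_at and _x_at probe sets, removal of genes with a mean under 5, adjustment over all probe sets, and each array left out.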

Additional observations from a re-analysis of the deposited data

Results flagged for a closer look

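Among 70 groups of 4 arrays (the 34 remodellers and ZMIZ1 in each condition), 2 had an array far from the other 3 for the spread of the group, and chance alone gives about 1 in 20. In CHD6 knockdown replicate 3 was the highest at 8.22, with the others from 8.13 to 8.14. In SMARCD1 knockdown replicate 3 was also the highest, at 8.91, with the others from 8.72 to 8.75. Both genes rose, and both calls held without that array.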

How the results depend on the processing

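The count of called remodellers, 9 of 34, was 9 with the mean-variance trend, median centring or removal of dim genes, 12 with array weights, 7 with the equal-variance test (2 of them lower), 7 without _s_at and _x_at probe sets (27 genes measured, 3 higher) and 7 with adjustment over all probe sets, which ended the calls of CHD4 (adjusted p = 0.0587) and SMARCC2 (0.0607). It was 5 with the mean of probe sets, of which 1 was higher. The count was 0 with the 18S covariate (0 higher and 0 lower), and 1 with knockdown arrays 1 and 2 only (0 higher and 1 lower). These counts include newly called genes. The mean of probe sets kept 2 of the 9 calls, CHD1 and SMARCD2, and added CHD7, SMARCC1 and SMARCD3. The equal-variance test kept 6 and added PHF10. Without _s_at and _x_at probe sets 6 of 7 measured were kept and SMARCA2 was added. Array weights kept 9 and added CHD8, PHF10 and SMARCD3. The share of all genes called moved too, from 22.1% to 32.4% with removal of dim genes and 29.4% with array weights. Removal of dim genes left 13931 genes, all 34 remodellers among them. The share was 14.1% with the equal-variance test, 19.1% with the mean of probe sets, 1.21% with the 18S covariate and 9.31% with knockdown arrays 1 and 2 only. It was 19.2% of 17273 genes without _s_at and _x_at probe sets, 17.8% with adjustment over all probe sets and 19.5% with the replicate block. With 1 array left out the count ranged from 6 to 10, with 3 to 5 higher and 3 to 5 lower. Of all genes 15.6% to 21.4% were called in these fits. The replicate numbers did not pair the arrays: same-numbered arrays correlated from -0.09 to 0.06 in their deviations from the group means, and with the replicate block 8 remodellers were called, CHD4 being lost (adjusted p = 0.0815). The 25 called partner genes became 1 with the 18S covariate, 14 with the equal-variance test, 16 without _s_at and _x_at probe sets (45 measured) and 10 with knockdown arrays 1 and 2 only, and 18 to 27 with 1 array left out. ZMIZ1 fell in all of these fits; with the mean of its probe sets its difference was -0.46.

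Over all 34 remodellers the difference changed sign in 9 with the 18S covariate, 5 with the mean of probe sets, 4 of the 27 measured without _s_at and _x_at probe sets and 5 with knockdown arrays 1 and 2 only. Among the called and catalytic genes these were CHD2 (-0.087), CHD3 (-0.26), CHD8 (-0.051) and SMARCA2 (-0.23) with the 18S covariate, CHD4 (-0.38), CHD6 (-0.026), DPF3 (0.014) and SMARCA2 (-0.20) with the mean of probe sets, and SMARCA2 (-0.39, adjusted p = 0.0190), SMARCA4 (-0.24) and SMARCC2 (0.35) without _s_at and _x_at probe sets. Using just knockdown arrays 1 and 2 turned CHD3 (-0.069) and SMARCA2 (-0.034) among these, and SMARCA2 ran from -0.072 to 0.14 with 1 array left out. Another probe set stands for the gene in the fits without _s_at and _x_at; otherwise the cause was not tested.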
